A study of Mus musculus with 8 samples.

Results

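Nts, Ccno, Clic5 and Tmeff1 are 4 of the 37018 genes and transcripts measured in peritoneal macrophages with and without FURIN, and they were chosen because their RNA differed between the genotypes after 4 h or 24 h of LPS. Nts and Ccno were picked from the 4 h contrast, where both were higher in FURIN KO than in WT RNA. Clic5, which was higher in KO RNA, and Tmeff1, which was lower, were picked from the 24 h contrast. The log2 KO/WT ratios at 4 h and 24 h therefore define the genes, and they are described here without a test. Every gene probe that maps to one of the genes was used, which gave 5 of 55681 probes, 2 of them for Tmeff1. All 4 genes passed the minimum mean log2 intensity of 6, as did 36947 genes and transcripts in all.

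Peritoneal cells of C57BL/6 background were taken from KO mice (LysMCre-fur fl/fl) or littermate WT mice, and adherent cells were left unstimulated or received LPS at 1 μg/ml for 1, 4 or 24 h. Each of the 4 time points has 2 arrays, and each array carried KO RNA in one dye and WT RNA of the same time in the other. KO RNA was in Cy5 on the arrays of replicate 1 and in Cy3 on those of replicate 2, so replicate and dye orientation cannot be told apart. All 8 arrays lay on 1 slide, and the labels call the replicates biological without saying how many animals gave each. The growth protocol names 4 h of stimulation for every sample, and the times used are those of the titles. Cre expressed from the lysozyme M promoter acts in myeloid cells, and neither an age nor the WT littermates' Cre status goes with the samples. LysMCre is known to replace lysozyme M coding sequence, which is Lyz2. Expression is given as normalised log2 intensity of 1 dye channel, or as the log2 ratio of KO to WT within an array, and probes of different genes are not set against each other in level.

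Neurotensin, the product of Nts, is a peptide of gut endocrine cells and of neurons that is cut from its precursor by proprotein convertases and acts on the receptors NTSR1 and NTSR2 and on the sorting receptor sortilin. Cyclin O, the product of Ccno, is known for the amplification of centrioles in multiciliated cells and lies next to Mcidas, a regulator of the same cells. CLIC5 belongs to the chloride intracellular channel family and is found with ezrin at the cell cortex of microvilli, hair cells and podocytes. TMEFF1, also called tomoregulin-1, is a membrane protein with follistatin-like domains and an EGF-like domain that inhibits Nodal signalling through the co-receptor Cripto.

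The RefSeq promoter table (GRCm38.p6) held a window for each of the 4 genes, with 250 bases before the transcription start and 50 bases from it on. The windows of Nts and Ccno are shown because both genes were higher in KO RNA at 4 h, and they read in the direction of the gene. The Nts window is chr10:102490369-102490668 on the minus strand, and the Ccno window is chr13:112987552-112987851 on the plus strand. Capitals mark matches to the motifs AP-1 (TGANTCA), cyclic AMP response element-like (TGACNTCA) and SP/KLF GC box (GGGCGG), searched on both strands.
Nts: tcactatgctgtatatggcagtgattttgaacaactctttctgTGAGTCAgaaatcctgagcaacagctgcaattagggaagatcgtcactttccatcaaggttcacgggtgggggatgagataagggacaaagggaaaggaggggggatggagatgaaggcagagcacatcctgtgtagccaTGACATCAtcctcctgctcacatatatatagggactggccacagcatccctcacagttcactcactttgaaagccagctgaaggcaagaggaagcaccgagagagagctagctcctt
Ccno: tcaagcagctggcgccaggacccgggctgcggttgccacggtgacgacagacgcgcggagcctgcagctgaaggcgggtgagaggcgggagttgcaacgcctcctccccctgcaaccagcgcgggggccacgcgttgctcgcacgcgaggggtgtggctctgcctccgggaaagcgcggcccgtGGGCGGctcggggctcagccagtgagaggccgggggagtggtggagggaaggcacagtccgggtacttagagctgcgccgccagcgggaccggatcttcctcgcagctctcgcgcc
The Nts window held 1 AP-1 match, which starts at position -207 from the transcription start, and 1 cyclic AMP response element-like match, which starts at -67. AP-1 matches were present in 7.81% of the 32851 windows of this length in the table, and cyclic AMP response element-like matches in 8.83%. The Ccno window held neither and had 1 GC box at -66, a motif found in 35.7% of windows. Windows of Clic5 (chr17:44188322-44188621, plus strand) and Tmeff1 (chr4:48584924-48585223, plus strand) had 2 and 5 GC boxes and none of the other motifs searched. No match to the NF-κB consensus (8.46% of windows), to the interferon-stimulated response element (3.44%), to TATAAA (13.6%) or to CCAAT (37.4%) was present in any of the 4 windows, and no matches overlapped. GC content was 49.0% for Nts, 72.0% for Ccno, 54.3% for Clic5 and 76.0% for Tmeff1, against a median of 52.7% over all windows. A match is a stretch of letters and not a site shown to be bound.

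The labels were checked with Furin and with Lyz2. The mean log2 KO/WT of Furin was -0.72 in unstimulated cells, and LPS for 1 h gave -0.56 and for 24 h gave -0.64. At 4 h it was 0.16, with 0.0012 and 0.33 on the 2 arrays. Lyz2 was lower in RNA labelled KO on all 8 arrays, from -0.75 to -1.85. The directions of Nts and Ccno at 4 h therefore rest on the labels and on Lyz2, and it is not given whether the Furin probe lies in the deleted part of the gene. Of the macrophage markers tested, 6 of 6 were well above background in all 16 channels. Markers of other cells were present as well, and markers of steroid-producing cells summed to 11.82 to 12.78 in WT replicate 1 against 9.38 to 9.72 in WT replicate 2 over the 4 times (log2 of summed intensity), with KO between 9.84 and 10.81. With RNA from a whole culture, fewer cells of a type and less RNA per cell cannot be told apart.

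Nts RNA was at background in unstimulated cells of both genotypes and was highest at 4 h, in RNA labelled KO. Unstimulated, its log2 intensity was 6.47 and 6.24 in WT and 6.43 and 6.36 in KO, and none of the 4 channels was well above background. At 4 h it was 7.95 and 7.31 in WT against 9.56 and 9.13 in KO. The genotypes did not overlap at 4 h, and such a gap with KO higher was seen for 11.9% of genes and transcripts. At 24 h, values were 6.72 and 6.73 in WT against 7.27 and 7.43 in KO, again without overlap (14.7% of genes and transcripts). The order of the groups was KO at 4 h, then WT at 4 h and KO at 24 h, which overlapped each other, then KO at 1 h and WT at 24 h, above the groups at background.

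Within arrays, log2 KO/WT of Nts was 1.61 and 1.82 at 4 h, with a mean of 1.72 (SE 0.12, n = 2), a 3.28-fold difference. Only 1 of 36947 genes and transcripts had a larger ratio in size at that time. The ratio was 0.55 and 0.70 at 24 h, with a mean of 0.63 (1.06 with a normexp offset of 0 and 1.48 with the scanner software's processed signals). Before the times that chose the gene, it was -0.036 and 0.12 unstimulated and 0.21 and 0.65 at 1 h. After 1 h of LPS, Nts was well above background in both KO channels (6.79 and 6.84) and in neither WT channel (6.58 and 6.19), so the ratio has no firm size. Channel levels with KO above WT were seen for 15.7% of genes and transcripts at 1 h. This 1 h difference of 0.43 on the log2 scale (95% interval 0.15 to 0.71) did not pass the limma test over all genes (adjusted p = 0.701, unadjusted p = 0.00764). It was 0.97 with offset 0 and 1.56 with the processed signals, both outside that interval, and neither passed.

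Over time, Nts was brightest at 4 h in both genotypes. Against the unstimulated channels, which were at background, the 4 h level was at least 2.41-fold higher in WT and at least 7.31-fold higher in KO. At 24 h the corresponding bounds were 1.20-fold in WT and 1.90-fold in KO. These bounds take the mean of the bright group against the higher of the dim probe's own signal and the lowest signal well above background on each array. At 1 h WT was still at background, so its response has no measured size. In KO the level was at least 1.27-fold higher than unstimulated, a difference that did not pass the test (adjusted p = 0.262, separate-channel limma).

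**Figure D1:**
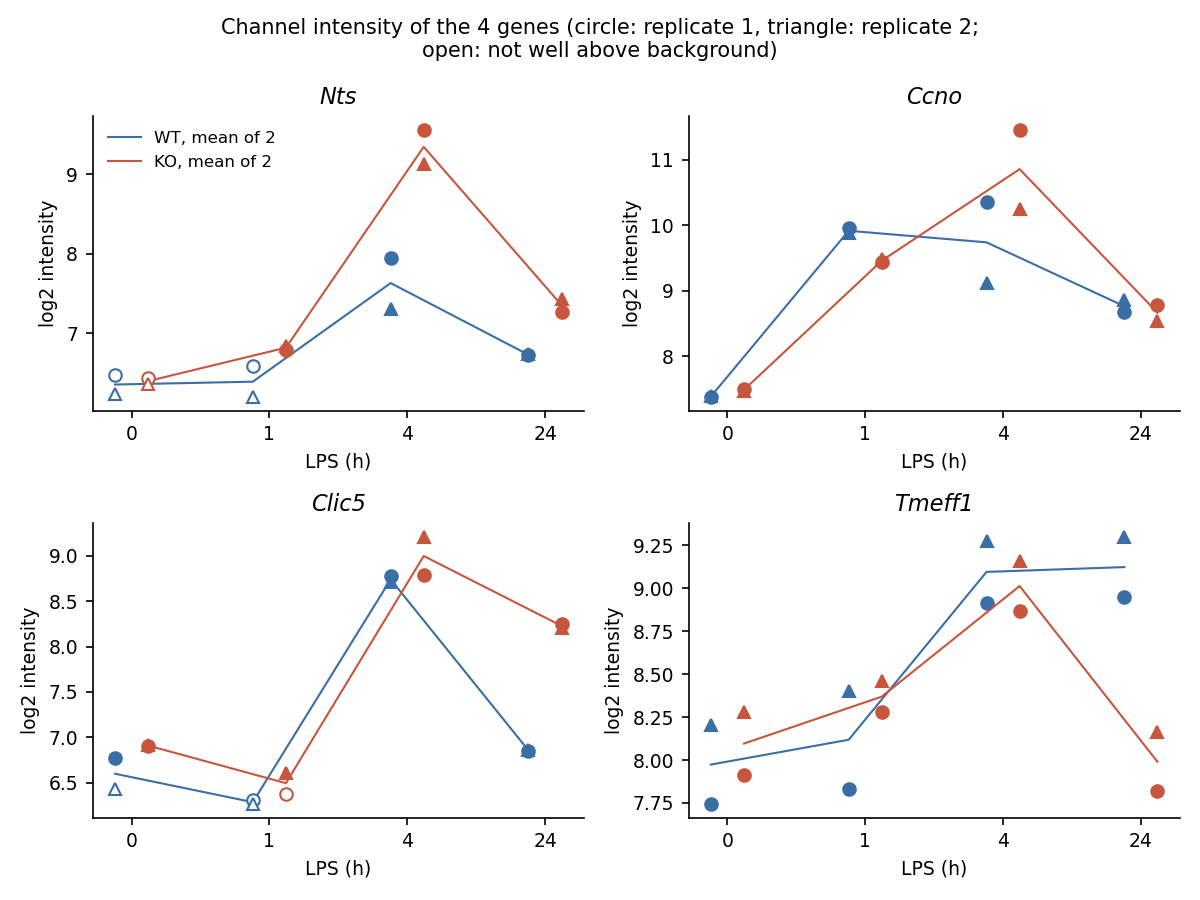
Normalised log2 intensity (vertical axes, each with its own range) of Nts, Ccno, Clic5 and Tmeff1 in WT (blue) and KO (red) channels against hours of LPS, with equal spacing between times. Circles are replicate 1, triangles replicate 2, open symbols are channels not well above background, and lines join the means of 2 channels. Nts in KO stands at 9.56 and 9.13 at 4 h, Ccno of replicate 1 is above replicate 2 in both genotypes at 4 h, Clic5 at 24 h is at 8.25 and 8.20 in KO and 6.85 and 6.86 in WT, and Tmeff1 in KO is back at its unstimulated level at 24 h.

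Ccno RNA rose within 1 h of LPS in both genotypes. Its log2 intensity was 7.37 and 7.39 in unstimulated WT and 7.49 and 7.47 in unstimulated KO. After 1 h it was 9.95 and 9.88 in WT and 9.43 and 9.48 in KO. Every channel at 1 h was thus above every unstimulated channel, and WT was above KO without overlap, as for 15.6% of genes and transcripts. The rise was 5.78-fold in WT (log2 2.53, SE 0.34, adjusted p = 0.000224, separate-channel limma) and 3.92-fold in KO (log2 1.97, SE 0.34, adjusted p = 0.00203). Of 36927 genes and transcripts tested at 1 h, 3.38% rose and 5.12% fell in WT, and 3.09% rose and 4.35% fell in KO. With only the 4 arrays of unstimulated cells and 1 h in the fit, adjusted p was 6.49e-07 in WT and 3.39e-06 in KO.

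The KO/WT ratio of Ccno had opposite signs at 1 h and 4 h on every array. Over all genes tested, 24.8% were below 0 on both arrays at 1 h and 22.1% above 0 on both at 4 h. The ratio of Ccno on replicates 1 and 2 was 0.13 and 0.079 unstimulated. It was -0.51 and -0.40 at 1 h, and it was 1.10 and 1.14 at 4 h. At 24 h the arrays stood on either side of 0 (0.12 and -0.31). The 1 h mean of -0.46 (95% interval -0.71 to -0.20) did not pass the test over all genes (adjusted p = 0.606, unadjusted p = 0.00317). Nor did the difference between the 1 h and unstimulated ratios, -0.56 (interval -0.92 to -0.20), pass the test (adjusted p = 1.00, unadjusted p = 0.00715), for which 0% of genes were called and 1.39% had an unadjusted p under 0.05. The 4 h mean of 1.12 (SE 0.11) is a 2.17-fold difference, and 19 genes and transcripts had a larger one in size.

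The levels of Ccno at 4 h did overlap between genotypes although the ratios of the 2 arrays were nearly equal. WT was at 10.36 in replicate 1 and 9.12 in replicate 2, and KO was at 11.46 and 10.25. Replicate 1 was above replicate 2 in both genotypes, a gap that the other times did not show. Between unstimulated cells and 4 h, the log2 difference was 2.35 in WT and 3.37 in KO (SE 0.34). By 24 h Ccno was at 8.67 and 8.86 in WT and 8.78 and 8.54 in KO, where the genotypes overlapped, and all 4 channels were above the unstimulated ones. Across groups, KO at 4 h overlapped WT at 4 h, whose wide range also held both 1 h groups, and the 24 h and unstimulated groups followed in that order.

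Clic5 RNA was high at 4 h in both genotypes, and at 24 h it was near its unstimulated level in WT but not in KO. At 4 h its log2 intensity was 8.77 and 8.71 in WT and 8.79 and 9.21 in KO. At 24 h it was 6.85 and 6.86 in WT against 8.25 and 8.20 in KO. The WT values at 24 h were close to those of unstimulated WT (6.77 and 6.43), whereas KO stood above its own (6.90 and 6.92). Such a gap between genotypes at 24 h, with KO higher, was seen for 14.7% of genes and transcripts. Of the unstimulated channels, WT replicate 2 was not well above background, and at 1 h only KO replicate 2 was, with values of 6.31 and 6.26 in WT and 6.38 and 6.61 in KO. In order of level, both 4 h groups came first, then KO at 24 h, unstimulated KO, WT at 24 h and unstimulated WT, whose range overlapped that of KO at 1 h.

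Within arrays, log2 KO/WT of Clic5 was 1.40 and 1.34 at 24 h, with a mean of 1.37 (SE 0.14, n = 2), a 2.59-fold difference that 15 genes and transcripts exceeded in size. The mean was 1.99 with a normexp offset of 0 and 2.55 with the processed signals. At 4 h, when its RNA was highest, the ratio was 0.013 and 0.50, so the arrays differed by more than their mean of 0.26. Between unstimulated cells and 4 h, the log2 difference was 2.14 in WT and 2.09 in KO (SE 0.14). The level at 24 h minus that at 4 h was -1.92 and -1.84 in the WT replicates and -0.53 and -1.01 in the KO replicates on the log2 scale. The tests on times that did not choose the gene were not passed, with 0.31 unstimulated (95% interval -0.011 to 0.63, adjusted p = 0.904) and 0.21 at 1 h (interval -0.11 to 0.53, adjusted p = 1.00). With offset 0 and with the processed signals, these ratios were 0.61 and 0.70 unstimulated and 0.55 and 1.95 at 1 h, and none passed. At 1 h of LPS neither WT channel was well above background, nor was 1 of the 2 unstimulated WT channels, so the response in WT has no firm size (adjusted p = 0.260). The response in KO was -0.41 (adjusted p = 0.112 by separate-channel limma, but 0.0450 with dye as a covariate). KO replicate 1 was not well above background at 1 h, so the response in KO has no firm size either.

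Tmeff1 RNA was higher at 4 h than in unstimulated cells in both genotypes, and at 24 h it was higher in WT but not in KO. Its log2 intensity was 7.74 and 8.21 in unstimulated WT and 7.91 and 8.28 in unstimulated KO. At 4 h it was 8.91 and 9.28 in WT and 8.87 and 9.16 in KO. At 24 h it was 8.95 and 9.30 in WT and 7.82 and 8.16 in KO, which lies within the range of the unstimulated channels. The genotypes did not overlap at 24 h, as for 13.5% of genes and transcripts with KO lower. Replicate 2 was above replicate 1 in every group, so WT at 24 h, WT at 4 h and KO at 4 h overlapped one another, and the other 5 groups lay below them, of which KO at 1 h (8.28 and 8.46) overlapped only WT at 1 h (7.83 and 8.40).

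The log2 KO/WT of Tmeff1 was -1.13 and -1.14 at 24 h, with a mean of -1.13 (SE 0.11, n = 2), so the KO level was 0.456 of the WT level. In size, 31 genes and transcripts had a larger ratio. At 4 h the ratio was -0.044 and -0.12. The log2 difference from unstimulated cells was 1.12 at 4 h and 1.15 at 24 h in WT, and 0.92 and -0.11 in KO (SE 0.22). Neither the unstimulated ratio of 0.12 (95% interval -0.13 to 0.37, adjusted p = 1.00) nor the 1 h ratio of 0.25 (interval 0.0035 to 0.50, adjusted p = 0.898, unadjusted p = 0.0475) passed the test. The response at 1 h was 0.14 in WT (adjusted p = 0.847, separate-channel limma) and 0.27 in KO (adjusted p = 0.618). This fit did not include the replicate number. Within replicates 1 and 2 the change was 0.090 and 0.20 in WT and 0.36 and 0.18 in KO.

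The second Tmeff1 probe was dimmer, with intensities between 62.3 and 128 on the linear scale, and it was well above background in 7 of 16 channels. Its log2 KO/WT at 24 h was -0.48 and -0.38, in the same direction as the brighter probe. At 24 h both WT channels were well above background (intensities of 117 and 128) and so was 1 of the KO channels (83.3 and 98.2, the latter above). The ratio of this probe therefore has no firm size. Unstimulated, the 2 arrays disagreed in sign (-0.45 and 0.13), with no channel above background. Averaged over both probes, the 24 h ratio of Tmeff1 is -0.78.

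**Figure D2:**
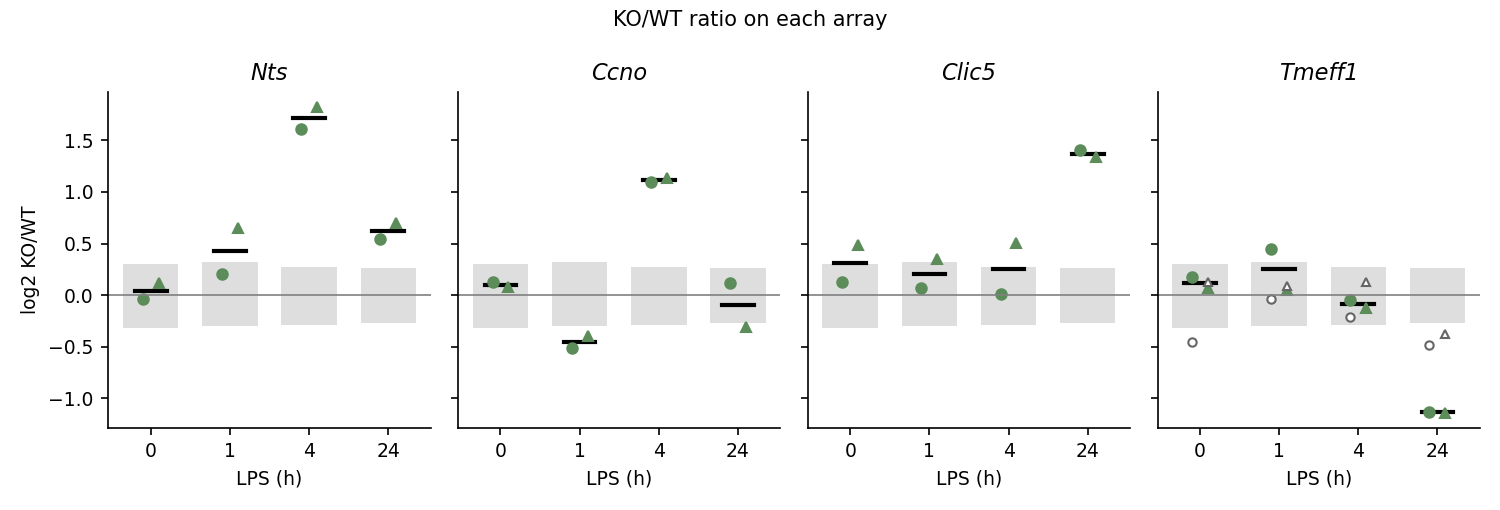
log2 KO/WT on each array (vertical axis, shared) against hours of LPS for the 4 genes. Circles are replicate 1, triangles replicate 2, black bars the mean of 2 arrays, and open grey symbols the second Tmeff1 probe. Grey boxes are the middle 95% of the 2-array means of 36947 genes and transcripts, so single-array points stand beside a range of means. Nts at 4 h and 24 h, Ccno at 1 h and 4 h, and Clic5 and Tmeff1 at 24 h have both arrays outside the boxes.

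At the times that did not choose the genes, 0 of the 4 were called between genotypes. Over all genes tested, 0% were called unstimulated and 0% at 1 h by limma, with 2135 and 2024 genes and transcripts at an unadjusted p under 0.05. Such p-values were seen at 1 h for 3 of the 4 genes (Nts, Ccno and Tmeff1) against 5.48% of the table. Unstimulated, they were seen for 0 of 4 against 5.78%. These p-values are not independent of the choice, because their standard errors also use the 4 h and 24 h arrays. The shares therefore cannot show a difference at 1 h. Limma on the 4 unstimulated and 1 h arrays alone gave adjusted p at 1 h of 0.841, 0.668 and 0.980 for Nts, Ccno and Tmeff1. The SE was then 0.131, 0.094 and 0.122, against 0.124, 0.113 and 0.109 with all arrays. With all arrays in the fit, the mean over unstimulated cells and 1 h called 0.179% of the table and none of the 4 genes. Its adjusted p ran from 0.396 for Nts to 0.530 for Ccno. With the replicate number as a block, 1.06% were called unstimulated and 0.574% at 1 h, and Nts had an adjusted p of 0.0632 and Ccno of 0.0831.

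The contrasts that chose the genes called 0.0135% of the table at 4 h, 4 higher (0.0108%) and 1 lower (0.00271%) in KO. At 24 h they called 0.0244%, 5 higher (0.0135%) and 4 lower (0.0108%), or 5 higher and 9 lower with loess only or with the deposited ratios. With the replicate block, 0.566% and 0.585% were called. The choice therefore depended on where the threshold lay. At 4 h, Ccno was the last of 5 genes inside it, after Has1 (1.66), Nts, Trem1 (1.32) and Lyz2 (-1.09), and just outside it were Hilpda (1.21) and Abca1 (1.61). At 24 h Tmeff1 and Clic5 had ranks 5 and 6 of 9, the last inside was Pdgfb (-0.86), and just outside were a transcript without a symbol (-1.51) and Slc16a9 (-0.97).

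Several marker lists did not overlap between genotypes at single times, and their part in the results was not tested. With 2 channels per genotype such gaps are common. Of single genes and transcripts, 15.7% had KO higher and 15.6% had KO lower without overlap at 1 h, and 11.9% had KO higher at 4 h. All levels here are log2 of the summed intensity of a list. In unstimulated cells, the macrophage list was at 18.90 to 19.14 in WT and 18.56 to 18.62 in KO, and the lists of neutrophils (lower in KO), eosinophils and mesothelial cells and fibroblasts (both higher in KO) did not overlap either. The genes of the macrophage list did not go one way, with unstimulated ratios of -0.87 for Lyz2, which the Cre allele disrupts, -0.34 for Mertk, -0.23 for Csf1r, 0.071 for Adgre1, 0.13 for Itgam and 1.01 for Fcgr1. At single times, no marker gene was called by limma without the block except Lyz2 at 4 h and 24 h. Lyz2 was also called lower in KO in the mean over unstimulated cells and 1 h (adjusted p = 0.0204, limma without the block). With the replicate block, Lyz2 was called lower in KO at every time, and the others called unstimulated were Fcgr1 (adjusted p = 0.0176) and the T cell gene Cd3d (0.60, adjusted p = 0.0166), both higher, and Mgarp of the steroid-producing list (-1.50, adjusted p = 0.0307). At 1 h, where Nts and Ccno levels did not overlap between genotypes, the macrophage list was at 18.79 to 19.08 in WT and 18.31 to 18.49 in KO, with ratios of -0.93 for Lyz2 and from -0.32 to 0.58 for the other genes. The T and NK cell list overlapped at 1 h (12.13 to 13.22 in WT, 13.12 to 13.55 in KO), but 2 of its genes were called higher in KO with the block, Cd3d (1.17, adjusted p = 0.00356) and Cd3g (0.80, adjusted p = 0.0193). The B cell list was then at 15.99 to 16.41 in WT and 16.56 to 16.71 in KO, and the mast cell list at 13.35 to 13.38 and 13.43 to 13.82. Lower in KO at 1 h were the lists of neutrophils (11.66 to 11.77 in WT, 11.21 to 11.25 in KO), dendritic cells (9.46 to 9.57 and 9.28 to 9.42) and endothelial cells (12.17 to 12.23 and 12.05 to 12.10). At 4 h, the mesothelial and fibroblast list (2 of 9 above background in every channel, Pdgfra in none) was at 10.39 to 10.59 in WT and 10.08 to 10.34 in KO. The macrophage list, which holds Lyz2, was at 17.87 to 18.17 in WT and 17.14 to 17.59 in KO. The ratios of its 6 genes were -1.09 for Lyz2, -0.53 for Csf1r, -0.33 for Mertk, 0.0093 for Adgre1, 0.24 for Itgam and 0.57 for Fcgr1, and the replicate block called Lyz2 and Csf1r (adjusted p = 0.0230) lower. It also called lower the fibroblast gene Col1a2 (-0.61, adjusted p = 0.0386) and Mgarp (-1.56, adjusted p = 0.0347). The eosinophil list (0 of 4 in every channel) was at 8.54 to 8.56 in WT and 8.38 to 8.51 in KO. Lists of mast cells (13.42 to 13.70 in WT, 13.48 to 14.52 in KO), B cells, T and NK cells, large and small peritoneal macrophages, neutrophils, dendritic cells, endothelial cells and ciliated cells overlapped between genotypes at 4 h.

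At 24 h, the time that chose Clic5 and Tmeff1, several lists were separate as well. Of single genes and transcripts, 14.7% had KO higher and 13.5% had KO lower without overlap at that time. The mast cell list (7 of 7 in every channel) was at 10.93 to 11.69 in WT and 11.93 to 11.97 in KO, and the large peritoneal macrophage list (5 of 6) at 13.12 to 13.40 and 13.70 to 13.87. Within the large peritoneal macrophage list, Selp had a ratio of 1.33 (adjusted p = 0.00656 with the block) and the median was -0.082, with Gata6, Vsig4 and Tgfb2 below 0. Of the mast cell genes, the block called Cpa3 higher (1.20, adjusted p = 0.00673). The T and NK cell list overlapped (11.89 to 12.39 in WT, 12.28 to 12.44 in KO), and the block called Cd3d of it higher (0.67, adjusted p = 0.00909). The mesothelial and fibroblast list was at 11.19 to 11.26 in WT and 11.50 to 11.55 in KO, and the B cell list (6 of 6) at 15.39 to 15.44 and 15.51 to 15.70. The ciliated cell list (2 of 6, with Dnah5 and Sntn in no channel) was at 9.90 to 9.97 in WT and 10.00 to 10.28 in KO, and the dendritic cell list (2 of 4) at 9.42 to 9.44 and 9.45 to 9.52. The macrophage list was at 17.46 in both WT channels and at 16.91 to 16.94 in KO, with ratios of -1.73 for Lyz2, -0.53 for Csf1r (adjusted p = 0.0221 with the block), -0.032 for Adgre1, 0.029 for Mertk, 0.12 for Itgam and 0.38 for Fcgr1. Of the endothelial markers, 5 of 7 (Cdh5, Tek, Lyve1, Prox1 and Flt4) were above background in no channel. The neutrophil list overlapped between genotypes and went from 11.20 to 11.62 in unstimulated cells to 14.48 to 15.99 at 24 h, when S100a8 (log2 change 3.77 in WT, 4.49 in KO) and Camp (1.82 and 1.62) were its only genes that rose.

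Genes related to the 4 genes, in part only by family or class, were described from 7 lists. In none of these lists was a gene called between genotypes at any single time by limma without the replicate block. With the replicate block, the mean over unstimulated cells and 1 h called 4.44% of all genes and 8 genes of the lists, namely Sort1, Sorl1, Myb (0.34, adjusted p = 0.0290), Ccnd1, Ccnc, Acvr2b, Inha and Smad3. The share of all genes with an unadjusted p under 0.05 was 4.3% at 4 h and 3.43% at 24 h. The median log2 KO/WT of all genes tested was -0.00070 at 4 h and 0.0037 at 24 h. With LPS, 15.5% of all genes rose and 19.3% fell at 4 h in WT, and 16.2% rose and 19.7% fell in KO. At 24 h, 13.5% rose and 17% fell in WT, and 12.7% rose and 15.9% fell in KO. Of the 15 genes of neurotensin handling, 5 were above background in no channel, among them the receptors Ntsr1 and Ntsr2 and the convertase Pcsk1. At 4 h, the largest ratios in size were -0.70 for Sort1, the sortilin gene (adjusted p = 0.874, and 0.0123 with the replicate block), and -0.13 for Pcsk5, which was above background in 1 channel. The median of the list was -0.026, and 1 of 15 had an unadjusted p under 0.05. With LPS, Sort1 fell in both genotypes, with log2 changes at 4 h of -2.83 in WT and -3.15 in KO, and at 24 h of -4.90 in WT and -4.69 in KO. Of this list, 2 rose and 2 fell at 4 h in each genotype, among them Sorl1 (-1.24 in WT, -1.61 in KO) and Thop1, a peptidase that degrades neurotensin (1.44 in WT, 1.33 in KO).

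Among 20 other neuropeptide precursors, Penk, the proenkephalin gene, had the largest ratio at 4 h (0.99, adjusted p = 0.101) and at 24 h (0.94, adjusted p = 0.0839). It was called at both times with the replicate block (adjusted p = 0.00618 and 0.00649). The next in size were Nmb at 4 h (0.23) and Cck at 24 h (-0.56). LPS raised Penk in WT (log2 change 1.08 at 1 h, 4.34 at 4 h) and in KO (1.41 at 1 h, 5.19 at 4 h). The medians of the list were 0.019 at 4 h and 0.0031 at 24 h, and 8 of 20 genes were above background in no channel.

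Of the 14 genes tested from the programme of multiciliated cells, none was called between genotypes at a single time, with or without the replicate block, and 0 had an unadjusted p under 0.05 at 4 h or 24 h. The largest ratios at 4 h were Rfx3 (-0.22) and E2f4 (0.19), and the median was 0.046. LPS called 0 of 14 at 1 h in either genotype, when Ccno rose. At 4 h, 4 rose and 2 fell in WT, and 4 rose and 3 fell in KO. Mcidas, the neighbour of Ccno, fell at 4 h (log2 change -1.48 in WT, -1.28 in KO) and further from the unstimulated level by 24 h (-3.02 in WT, -2.85 in KO). E2f5, a transcription factor that works with the MCIDAS protein, rose by 1.81 and 1.97 at 4 h.

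Of 22 other cyclins, none was called between genotypes at a single time, and Ccnd1 had the largest ratio unstimulated (1.40, adjusted p = 0.0587, and 0.00151 with the replicate block) and at 1 h (0.90, adjusted p = 0.347, and 0.0207 with the block). Ccnd1 was also the 1 cyclin called in the mean over unstimulated cells and 1 h without the block. At 4 h, when Ccno was higher in KO, the largest were Ccny (-0.58) and Ccnd1 (0.43), and the median was 0.082. After 1 h of LPS, 3 of 22 rose in WT: Ccnd2 (0.88), Ccng2 (1.29) and Ccnl1 (1.57). The same 3 rose in KO, by 0.84, 0.98 and 1.65, and Ccnd1 fell there (-0.76). At 24 h, 8 of 22 rose in each genotype, including the mitotic cyclins Ccna2 (3.97 in WT and 3.64 in KO) and Ccnb1 (4.17 and 3.64).

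Among the other CLIC genes, Clic1 and Clic4 were above background in all 16 channels and Clic3 and Clic6 in none. Their ratios lay between -0.10 and 0.14 at 4 h and 24 h, and 0 of 4 had an unadjusted p under 0.05 at any single time. Clic4 rose with LPS, in WT by 1.44 (1 h), 2.98 (4 h) and 0.74 (24 h) and in KO by 1.12, 2.67 and 0.56 on the log2 scale. Of 9 tested partners of CLIC5 at the cell cortex, none was called between genotypes, and the largest ratios at 24 h were Ezr, the ezrin gene (0.23), and Myo7a (-0.20). With LPS, Myo7a fell at 4 h (-2.38 in WT, -2.22 in KO) and Slc9a3r2 at 24 h (-1.51 in WT, -1.31 in KO). Podxl and Ptprq were above background in no channel.

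Of 19 Nodal, activin and follistatin genes, none was called between genotypes by limma without the block, and 0 had an unadjusted p under 0.05 at 4 h or 24 h. At 24 h the largest ratios were Inha (-0.54), which was above background in 4 channels, and Fstl1 (-0.24), with a list median of -0.051. At 4 h they were Inhba, which encodes an activin subunit (1.09, adjusted p = 1.00), and Fst, which encodes the activin-binding follistatin (0.73, adjusted p = 1.00). With the replicate block, Acvr2b was called lower unstimulated and at 1 h (adjusted p = 0.0210 and 0.0376), and Inha at 1 h (0.0199). LPS raised Inhba in WT (4.95 at 4 h, 6.36 at 24 h) and in KO (6.13 and 6.40), and Fst at 4 h (2.77 in WT, 4.11 in KO). Acvr2b, an activin receptor gene, fell in WT (-1.32 at 1 h, -2.71 at 4 h) and in KO (-1.30 and -2.04).

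**Figure D3:**
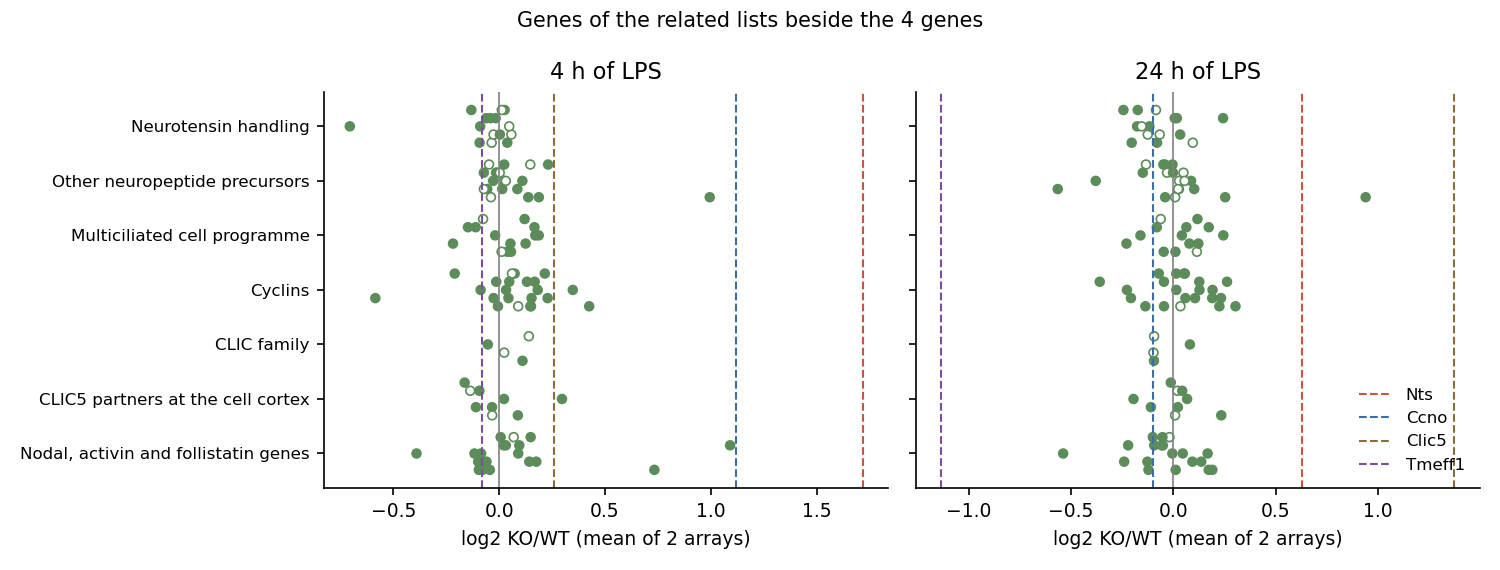
Mean log2 KO/WT of 2 arrays (horizontal axes) at 4 h (left) and 24 h (right) of LPS for each tested gene of the 7 lists, spread vertically for legibility. Open symbols are genes above background in no channel, and dashed lines give the ratios of Nts, Ccno, Clic5 and Tmeff1. Penk (0.99), Inhba (1.09) and Fst (0.73) are the points far to the right at 4 h, and none of the list genes reaches Clic5 or Tmeff1 at 24 h.

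The genes beside the 4 genes on their chromosomes were described as well. For each gene, the 5 nearest tested named genes on either side in the order of the reference table (GRCm38.p6) were taken, and 0 of these 40 were called at any time, against 0% to 0.0244% of all genes. With the replicate block, 1 was called (0.574% of all genes at 1 h), Plpp1 on the Ccno side, lower at 1 h (-0.65, adjusted p = 0.0160). At 4 h the neighbours of Nts lay between -0.11 and 0.16 and those of Ccno between -0.34 and 0.25. The adjacent genes were at 0.031 (Mgat4c) and -0.040 (Rassf9) for Nts and at 0.015 (Dhx29) and 0.039 (Mcidas) for Ccno. At 24 h the neighbours of Clic5 lay between -0.10 and 0.31 and those of Tmeff1 between -0.41 and 0.22. The adjacent genes were at 0.31 (Enpp4) and 0.17 (Runx2) for Clic5 and at -0.41 (Msantd3) and -0.086 (Cavin4) for Tmeff1.

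**Figure D4:**
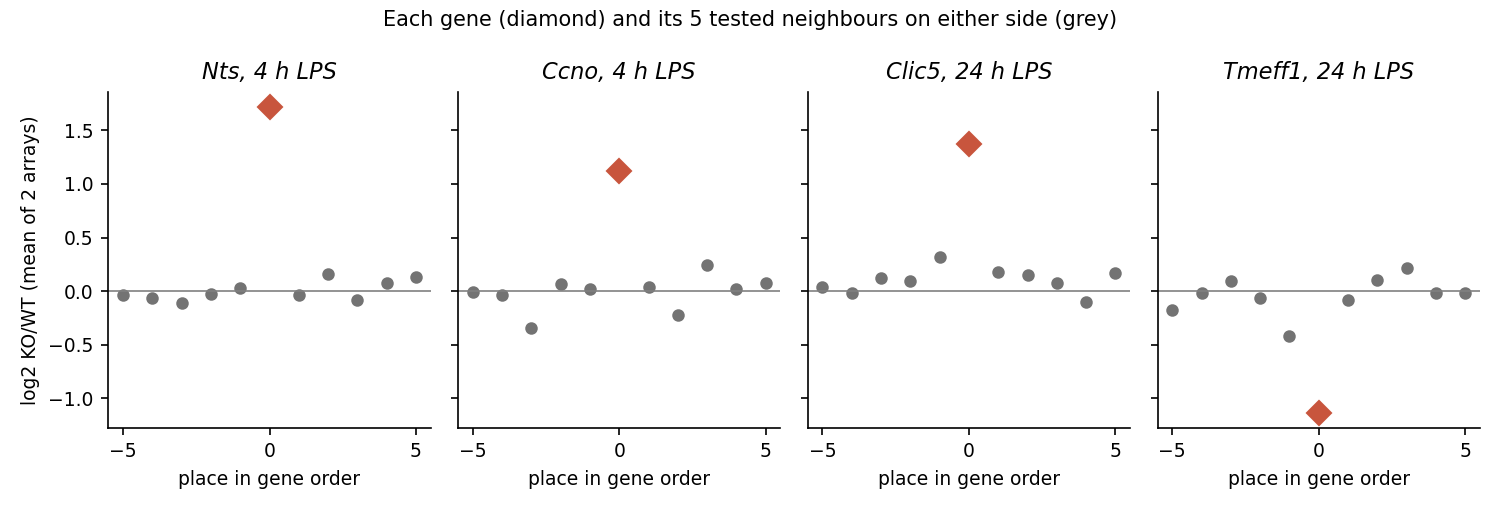
Mean log2 KO/WT of 2 arrays (vertical axis, shared) for each of the 4 genes (red diamond) and its 5 tested neighbours on either side (grey), against place in gene order, at the time that chose the gene. Neighbours lie between -0.41 and 0.31, and the genes themselves at 1.72, 1.12, 1.37 and -1.13.

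The named genes with the most similar patterns were ranked by Pearson's r over the 16 channels, which share arrays and time points, so r is a description. Nts was closest to Tmtc2 (r = 0.948), Olfr56 (0.944) and Has1 (0.944), a hyaluronan synthase gene with a log2 KO/WT of 1.66 at 4 h. Ccno was closest to Osm (0.962), which encodes the cytokine oncostatin M, Pard6g (0.961) and Pde4b (0.958), a cyclic AMP phosphodiesterase gene. For Clic5, F830016B08Rik (0.966) and Serpina3i (0.964) are given, whose ratios at 24 h were 1.29 and 0.86. Tmeff1 was closest to Pmepa1 (0.850), Cry1 (0.846) and Met (0.842), with ratios of -0.71, -0.18 and -0.31 at 24 h.

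By log2 KO/WT over the 8 arrays, the closest were Arl5c (0.968), Hoxb4 (0.961) and Nfe2 (0.954) for Nts, and Ssx2ip (0.969), Calcoco2 (0.956) and Slco2b1 (0.955) for Ccno. They were Tmem176b (0.981), Haghl (0.966) and Dnaaf3 (0.966) for Clic5, and Ptpn7 (0.955), Disp2 (0.949) and Taar7d (0.944) for Tmeff1. These are the highest r of 20836 genes compared. Calcoco2, Slco2b1, Disp2 and Taar7d had mean log2 intensities of 6.45, 6.16, 6.14 and 6.12, close to the minimum of 6. Being close in pattern did not mean being close in size, since Tmem176b had a ratio of 0.26 at 24 h where Clic5 had 1.37. Among the 4 genes, the ratios of Nts and Ccno had r = 0.789 over the 8 arrays, and those of Clic5 and Tmeff1 r = -0.949, both of which follow in part from the times that chose them. In level over the 16 channels, Nts and Clic5 were the pair with the highest r (0.853), and both were highest at 4 h.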

How the data were processed

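RNA of KO and WT macrophages was compared on 8 Agilent 2-colour arrays of 62976 spots, whose number limits the precision. The authors scanned the arrays and, per the labels, extracted the intensity of each spot in both dyes with Feature Extraction 10.7.3. These deposited intensities (median of the pixels per spot) are not normalized, and the software's processed signals stand beside them. The authors also deposited a table of log2 ratios of Cy5 to Cy3, which served as an alternative. Its direction was checked against the scanner ratios. The share of spots well above background was 43.8% to 51.3% per channel.

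Background was corrected with normexp (offset 50), followed by loess within arrays and quantile normalization between arrays, in limma 3.58.1 (R 4.3.3). Control spots and 169 to 284 outlier spots per array were left out. Probes were named through RefSeq identifiers. Repeated spots were averaged per probe, a gene was taken from its brightest probe, and those whose mean log2 intensity lay under 6 were left out.

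For KO against WT, lmFit and eBayes were run on the log2 ratios of the 8 arrays together, with one coefficient per time and 4 residual degrees of freedom, and p-values were adjusted over 36947 genes and transcripts (Benjamini-Hochberg, threshold 0.05). Responses to LPS were fitted in separate channels (statmod 1.5.0, within-spot correlation 0.114 from 5000 genes drawn with a fixed seed, 36927 genes and transcripts). The scripts were tested on simulated data. The p-values measure the spread between 2 arrays per time, and whether the replicates come from separate animals is not given in the sources used here. Standard errors at 0 h and 1 h also use the arrays of 4 h and 24 h, so a fit of the 4 early arrays alone was added after seeing the data.

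The labels number the replicates, and the differences between replicates 1 and 2 were correlated between every 2 times (Pearson's r from 0.475 to 0.679 over 6 pairs of times, across genes). Replicate number goes with dye orientation on every array, so this correlation cannot tell pairing from a dye effect. The replicate block was therefore used only as an alternative. The 4 genes, the related lists and the marker lists were chosen with earlier results of these data known. Named are the 4 genes, Furin, Lyz2, list genes past the threshold or the 2 with the largest ratio, adjacent neighbours, the 3 most similar genes by each measure (1 of those of Clic5 is not reported here), and genes beside the threshold. From longer lists of LPS responses, examples are given. The alternatives were the replicate block, other normalizations, an offset of 0, processed signals, deposited ratios, no intensity minimum, the mean over probes, the methods' t-test, a dye term for the LPS responses and each array left out. Promoter windows came from the RefSeq table of GRCm38.p6, read with Python 3 scripts, and no probe positions are given because the array annotation uses another build.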

Additional observations from a re-analysis of the deposited data

Results flagged for a closer look

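The KO/WT ratio of Ccno pointed to opposite sides on every array at 1 h and 4 h, with a difference of 1.57 on the log2 scale (4 h minus 1 h, from -0.46 to 1.12). Of all genes tested, 24.8% were below 0 on both arrays at 1 h and 22.1% above 0 on both at 4 h. By its brighter probe, the ratio of Tmeff1 was above 0 on both arrays in unstimulated cells and at 1 h and below 0 on both at 4 h and 24 h. The 4 h mean was only -0.082, and 45.7% of genes and transcripts had a larger ratio in size at that time. Unstimulated, 31.1% had a larger one. The differences of the Tmeff1 ratio were -0.20 (4 h minus unstimulated), -1.26 (24 h minus unstimulated), -0.33 (4 h minus 1 h) and -1.38 (24 h minus 1 h). The second probe had opposite signs on the 2 arrays unstimulated, at 1 h and at 4 h. These differences were not tested, because the 4 h and 24 h ratios chose the genes. Groups of 2 arrays are too small to look for single outlying arrays.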

How the results depend on the processing

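The choice of the 4 genes depended on the background correction. With a normexp offset of 0 or with the processed signals, 0 genes and transcripts were called at 4 h, 0 at 24 h and 0 in the mean over unstimulated cells and 1 h, against 5, 9 and 66. The methods' t-test called 0 at each time after Benjamini-Hochberg adjustment (1128 at 4 h and 1513 at 24 h at an unadjusted p under 0.05). The deposited ratios called 3 at 4 h, 14 at 24 h and 34 in the early mean. With loess only, or with Aquantile, 14 were called at 24 h and 35 in the early mean, and with the mean over probes 4 and 23. The 4 early arrays alone called 0 in the early mean. With the replicate block, which is also a dye term, 391 were called unstimulated, 212 at 1 h, 209 at 4 h, 216 at 24 h and 1641 in the early mean, and it changed no call of the 4 genes unstimulated, at 1 h or in the early mean (the other times chose the genes and were not tested). Leaving out each array gave 0 to 3 calls unstimulated, 0 to 10 at 1 h, 0 to 8 at 4 h, 0 to 11 at 24 h, 0 to 34 in the early mean and 0 to 9 in the change from unstimulated to 1 h, with 0 at 4 h when either 4 h array was missing. LPS calls at 1 h ranged from 1797 to 3284 in WT and from 1428 to 2836 in KO. The ratios that chose the genes kept their direction. Nts at 4 h was 2.05 with offset 0 and 2.28 with processed signals, and at 24 h 1.06 and 1.48. Ccno at 4 h was 1.17 with loess only, Aquantile, offset 0 and the deposited ratios and 1.25 with processed signals. Clic5 at 24 h was 1.50 with loess only, Aquantile and the deposited ratios, 1.99 with offset 0 and 2.55 with processed signals. Tmeff1 at 24 h was -1.22 with loess only, Aquantile and the deposited ratios, -1.32 with offset 0, -1.53 with processed signals and -0.78 over both probes. Nts at 1 h ranged up to 1.56 and Clic5 at 1 h up to 1.95. Signs turned in uncalled values: Tmeff1 unstimulated over both probes (-0.019), and with 1 array left out, Nts unstimulated (-0.036 to 0.12), Ccno at 24 h (-0.31 to 0.12), and the 1 h response in WT of Nts (-0.16 to 0.23) and Tmeff1 (-0.14 to 0.43). The early rise of Ccno passed in every alternative, with adjusted p up to 0.00656 in WT and 0.0310 in KO when an array was left out. The 1 h response of Clic5 in KO (-0.41) passed with dye as a covariate (adjusted p = 0.0450). The cause of these changes was not tested. Intensities near background limit what can be said of Nts and Clic5 unstimulated and at 1 h, and of the size of their ratios at 24 h, when WT was close to background.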
